A study of Homo sapiens with 4 samples.

Results

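The genes described here were 6 matrix metalloproteinases, *MMP1*, *MMP2*, *MMP3*, *MMP10*, *MMP14* and *MMP15*, and 3 tissue inhibitors of metalloproteinases, *TIMP1*, *TIMP2* and *TIMP3*. They were taken as a named list, set with earlier results of these data known. Each of the 9 symbols matched 1 Ensembl identifier in the deposited tables, which list 34241 identifiers in all and 32991 in every library. By their labels the cells came from A375, an established human melanoma line with the *BRAF* V600E mutation. They were measured by droplet single-cell RNA-seq in 4 conditions: untreated, sensitive cells (S), cells resistant to the BRAF inhibitor vemurafenib (RV), and cells resistant to vemurafenib combined with either of the MEK1/2 inhibitors cobimetinib (RVC) and trametinib (RVT). Drug exposure of the resistant cultures lasted 10 to 14 days at doses below the IC50, followed by 24 h without drug before capture. Each condition is 1 culture of 1 line and 1 library, without a replicate, so that no test between conditions was possible and no p-value is given.

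Matrix metalloproteinases are zinc-dependent proteases that are made as inactive proenzymes and cut the proteins of the extracellular matrix. The collagenase MMP1 opens fibrillar collagen, the gelatinase MMP2 cuts denatured collagen and basement membrane, the stromelysins MMP3 and MMP10 have broad substrates and can activate other proenzymes, and MMP14 and MMP15 are anchored in the cell membrane. TIMPs block the active site of these proteases. TIMP2 has a further role, since MMP14 on the cell surface uses it as a bridge to bind and activate the MMP2 proenzyme. Metalloproteinases have long been studied in melanoma for their part in invasion, and their transcription is known to respond to ERK signalling through AP-1 and ETS factors.

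Before the results, the libraries and their labels were checked. After filtering, 4177 to 8443 cells per library were left, and the median number of UMIs per cell (unique molecular identifiers, each tagging 1 captured transcript) was 11553 in RV, 8804 in S, 3955 in RVC and 2869 in RVT. The S and RV tables list another set of genes than the RVC and RVT tables, which means that 2 gene annotations were in use. Annotation, depth and the addition of a MEK inhibitor therefore cannot be told apart between these pairs of libraries. Any pair of libraries shared 38 to 149 cell barcodes. Of 9 melanocyte lineage markers, summing to 140 CPM (UMIs per 1000000 UMIs of a library) in S, 79.3 in RVT, 70.8 in RV and 16.1 in RVC, *MLANA*, *TYR* and *DCT* had at most 2 UMIs in any library and *PMEL* at most 23, while *SOX10*, the transcription factor of the neural crest lineage, had 86.7 CPM in S, 40.2 in RV, 19.4 in RVT and no UMI in RVC, and *S100B* had no UMI in RVC either. Other markers of the list did not follow *SOX10*, since *TYRP1* had 161 UMIs in RVC, 44 in RVT, 4 in S and 1 in RV, *MITF* had 7.94 CPM in RVC beside 9.73 in S and 40.7 in RVT, and *S100A1* had 3.13 in RVC, 2.89 in RV, 10.6 in S and 16.8 in RVT. Fibroblast markers summed to 194 CPM in RVC, 45.2 in RVT, 2.99 in S and 2.39 in RV. All 9 had a UMI in RVC, but *COL1A2* had only 8 there and *THY1* only 3, beside 2 of *THY1* in S. Most of the sum in RVC was *COL3A1*, at 122 CPM beside 7.32 in RVT, and *PDGFRA*, *DCN* and *FAP* were also highest in RVC. *LUM* was alike in RVC and RVT, at 22.0 CPM in both, and *COL1A1* and *PDGFRB* were at 2.83 and 5.50 in RVC and at 3.62 and 7.44 in RVT. The RVC library thus stood apart from the others in *SOX10* and in *COL3A1*, *PDGFRA*, *DCN* and *FAP*, and whether it was the labelled A375 culture, wholly or in part, was not tested. Every value for RVC below is therefore that of the library labelled RVC. The comparisons of RV and of RVT with S do not use it. Of 7 leukocyte markers, *PTPRC* and *TYROBP* had no UMI in any library, *CD14* and *CD163* had at most 2, and *LYZ* at most 39. *CD68*, a lysosomal protein gene, was 4.36-fold higher in RVC than in S, at 152 against 34.9 CPM, and *CSF1R*, a growth factor receptor of macrophages, 7.76-fold, at 2.92 against 0.376. The part of other cells in the values for RVC was not tested.

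*MMP10*, *MMP1* and *MMP3* lie next to each other, in this order, on the minus strand of the long arm of chromosome 11 (GRCh38, GENCODE 29), *MMP10* at chr11:102770503-102780628, *MMP1* at chr11:102789920-102798160 and *MMP3* at chr11:102835801-102843803. *MMP2* is on chromosome 16 (55389700 to 55506691, plus strand), as is *MMP15* (58025566 to 58046901, plus strand), and *MMP14* is on chromosome 14 (22836557 to 22849027, plus strand). *TIMP1* is on chromosome X (47582313 to 47586789, plus strand), *TIMP2* on chromosome 17 (78852977 to 78925387, minus strand) and *TIMP3* on chromosome 22 (32801701 to 32863043, plus strand). *TIMP1* and *TIMP3* are each nested in a synapsin gene on the opposite strand, *SYN1* and *SYN3*. *SYN1* had at most 8 UMIs in a library, and *SYN3* had 46 in S, 29 in RV, 2 in RVT and 0 in RVC.

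Promoter sequence was at hand for 5 of the 9 genes (RefSeq, GRCh38.p14), *MMP10*, *MMP14*, *MMP15*, *TIMP1* and *TIMP3*. The 250 bases before the transcription start of *MMP10* and *TIMP3* are shown, 5′ to 3′ on the strand of the gene, because these genes lay on opposite sides of S in the RVC library. Capitals mark matches to TGANTCA, a loose form of the AP-1 core with any central base, or to TATAAA, the TATA box core. Both were searched on both strands.
*MMP10*, chr11:102780629-102780878, minus strand: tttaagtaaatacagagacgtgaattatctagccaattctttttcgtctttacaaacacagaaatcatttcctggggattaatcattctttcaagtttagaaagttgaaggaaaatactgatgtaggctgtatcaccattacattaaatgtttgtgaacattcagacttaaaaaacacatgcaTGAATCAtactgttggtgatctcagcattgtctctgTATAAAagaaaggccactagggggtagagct
*TIMP3*, chr22:32801455-32801704, plus strand: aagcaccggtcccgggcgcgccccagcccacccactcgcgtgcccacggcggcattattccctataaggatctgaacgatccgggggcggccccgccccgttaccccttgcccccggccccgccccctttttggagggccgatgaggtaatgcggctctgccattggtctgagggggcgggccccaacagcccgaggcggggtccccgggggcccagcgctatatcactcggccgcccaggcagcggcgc
The *MMP10* promoter held 1 match to TGANTCA, 67 to 61 bases before the start, and 1 match to TATAAA, 31 to 26 bases before it. The other 4 promoters held neither. Among 27305 promoters of the same length, 6.60% held TGANTCA and 11.1% held TATAAA. The *MMP10* promoter was also the poorest of the 5 in G and C, at 34.4% and with 2 CG dinucleotides, whereas that of *TIMP3* had 72.4% and 26 and that of *MMP15* 74.8% and 31. The median promoter had 58.0% and 11. A match is only a description of these letters, and no binding was measured.

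Levels below are UMIs of a gene per 1000000 UMIs of its library (CPM), summed over the filtered cells. Because each UMI stands for 1 transcript captured at its 3′ end, the values were not divided by transcript length. Ranges in parentheses are exact 95% intervals for counting error alone, from the Poisson distribution for levels, from the conditional binomial for ratios and by the Clopper-Pearson method for percentages of cells. They say nothing about how far another culture would differ. A count of 0 was taken as 3 UMIs in ratios, which is 0.118 CPM in RVT, 0.0912 in RVC, 0.0573 in RV and 0.0513 in S.

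The collagenase and the stromelysins stood out in 1 library. *MMP1* had 1163 CPM in RVC (1151 to 1174), 3.22 in S (2.77 to 3.71), 1.81 in RVT (1.33 to 2.42) and 1.30 in RV (1.01 to 1.65). These levels rest on 38235 UMIs in RVC, 188 in S, 68 in RV and 46 in RVT. Its level in RVC was 362-fold that in S (313 to 420) and 642-fold that in RVT (481 to 877). RV and RVT were neighbours at the low end of this order and their intervals overlapped.

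*MMP3*, a stromelysin, had 9509 UMIs in RVC, 21 in RVT, 3 in RV and 2 in S, which is 289, 0.827, 0.0573 and 0.0342 CPM. It was nearly undetected outside RVC. The 21 UMIs of RVT put RVT at 24.2-fold S (5.91 to 213), with neither library at 1 CPM. With 2 UMIs in S the ratio of RVC to S, 8454, has an interval from 2340 to 69821, and the ratio of RVC to RVT was 350 (229 to 565). Between RV and S no ratio is given, since both were at or under the 3 UMIs taken for a count of 0.

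*MMP10*, the other stromelysin, was far less abundant, at 6.99 CPM in RVC (6.12 to 7.96), 0.770 in S (0.561 to 1.03), 0.0787 in RVT (0.00953 to 0.284) and 0.0382 in RV (0.00463 to 0.138). RVC was again highest, at 9.09 times the level in S (6.58 to 12.8). RV and RVT had 2 UMIs each, against 45 in S, which puts S at 20.1-fold RV (5.26 to 171) and 9.78-fold RVT (2.55 to 83.2). Neither of these comparisons reached the 1 CPM asked of the higher library for a gene to be counted below.

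**Figure D1:**
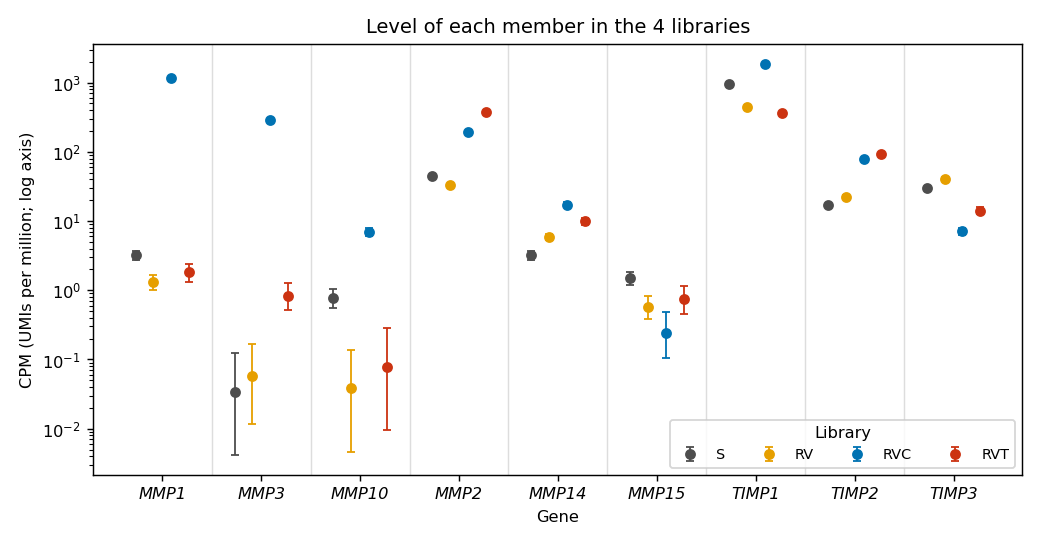
CPM of the 9 genes (log axis) in S, RV, RVC and RVT, 1 point per library, with bars for the exact 95% Poisson interval (counting error only). *MMP1* and *MMP3* are at 1163 and 289 CPM in RVC and at 3.22 CPM or less in the other libraries, whereas *MMP2* and *TIMP2* are high in both RVC and RVT.

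The gelatinase gene *MMP2* followed another order, with 379 CPM in RVT (372 to 387), 192 in RVC (188 to 197), 45.1 in S (43.4 to 46.9) and 33.0 in RV (31.4 to 34.6). Here RVT, not RVC, was highest, at 8.40-fold S (8.05 to 8.78), and RVC was at 4.26-fold S (4.07 to 4.46). The intervals of the 4 libraries did not overlap.

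*MMP14*, the membrane-type protease that activates the MMP2 proenzyme, had 17.2 CPM in RVC (15.8 to 18.7), 9.88 in RVT (8.69 to 11.2), 5.89 in RV (5.25 to 6.58) and 3.18 in S (2.74 to 3.67). It was higher than S in all 3 resistant libraries, 1.85-fold in RV (1.54 to 2.23), 5.40-fold in RVC (4.57 to 6.41) and 3.11-fold in RVT (2.56 to 3.77). *MMP15*, a related membrane-type protease, had 1.49 CPM in S (1.19 to 1.84) against 0.748 in RVT (0.450 to 1.17), 0.573 in RV (0.387 to 0.818) and 0.243 in RVC (0.105 to 0.479). These values rest on 87, 19, 30 and 8 UMIs, and the intervals of RV, RVT and RVC overlapped. The 3′ end of *MMP15* is rich in G and C, 59.6% of its last 500 bases, more than in 93.2% of expressed genes. When ratios were centred on genes of like GC content, the log2 ratio of *MMP15* to S went from -2.61 to -1.20 in RVC and from -0.99 to 0.60 in RVT, so no direction is given for RVT.

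*TIMP1*, whose product inhibits most secreted metalloproteinases, was the most abundant of the 9 genes in S, RV and RVC. It had 1867 CPM in RVC (1852 to 1882), 960 in S (953 to 968), 451 in RV (445 to 456) and only 365 in RVT (358 to 373). The level in RVC was 1.94-fold S (1.92 to 1.97), while S was 2.13-fold RV (2.10 to 2.16) and 2.63-fold RVT (2.57 to 2.69). With the same centring on GC content the log2 ratio of RVT to S went from -1.40 to -0.69, so that the difference was no longer 2-fold. *TIMP1* was thus highest in the library that was also highest for *MMP1*, *MMP3*, *MMP10* and *MMP14*, and RVC held 5.12 times the *TIMP1* level of RVT (5.00 to 5.23).

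*TIMP2*, the inhibitor that also serves in MMP2 activation, had 91.7 CPM in RVT (88.0 to 95.5), 79.0 in RVC (76.0 to 82.1), 22.1 in RV (20.9 to 23.5) and 16.8 in S (15.7 to 17.9). RVT and RVC were close, and the log2 ratio of RVT to RVC turned from 0.21 to -0.09 with TMM scaling, a scaling on the bulk of genes, and to -0.13 with the GC centring, so no order is given for them. The level was 4.71-fold higher than S in RVC (4.38 to 5.08) and 5.46-fold in RVT (5.07 to 5.89), where the GC centring took the log2 ratio from 2.45 to 1.86. *TIMP3*, an inhibitor that stays bound to the matrix, ran the other way in the double-resistant libraries, with 41.0 CPM in RV (39.2 to 42.7), 30.0 in S (28.6 to 31.5), 14.2 in RVT (12.7 to 15.7) and 7.09 in RVC (6.21 to 8.06). S was 4.24-fold RVC (3.69 to 4.88) and 2.12-fold RVT (1.89 to 2.38).

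Summed over the 6 metalloproteinases, the level was 1669 CPM in RVC, 393 in RVT, 53.8 in S and 40.8 in RV, and summed over the 3 inhibitors it was 1953 CPM in RVC, 1007 in S, 514 in RV and 471 in RVT. For each UMI of these 6 metalloproteinases there were 18.7 inhibitor UMIs in S (18.1 to 19.4) and 12.6 in RV (12.0 to 13.2), but 1.20 in RVT (1.17 to 1.23) and 1.17 in RVC (1.16 to 1.18). Over the listed genes the double-resistant libraries thus came to nearly the same ratio of transcripts with different genes. *MMP1* gave 69.7% of the listed metalloproteinase UMIs in RVC and *MMP2* gave 96.6% in RVT. In S and RV the largest part was also *MMP2*, with 83.9% and 80.8%. *TIMP1* gave 77.5% to 95.6% of the inhibitor UMIs in every library. Metalloproteinases outside the list are not in these ratios and shares. The most abundant of them, *MMP16*, had 2277 UMIs in RVT, 1304 in S, 594 in RV and 565 in RVC. Counting it would lower the ratios and the shares of *MMP2*. It would lower the ratio more in RVT than in RVC, so their near match holds for the listed genes only. The ratio of inhibitors to metalloproteinases was not centred on GC content, and such centring moved its leading genes in opposite directions. In RVC over S the log2 ratio of *TIMP1* went from 0.96 to 1.45 and that of *MMP1* from 8.50 to 8.04, and in RVT over S that of *TIMP1* went from -1.40 to -0.69 and that of *MMP2* from 3.07 to 2.66, so the drop from S to the double-resistant libraries would be smaller with it.

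A gene was counted as higher or lower when its CPM differed at least 2-fold between libraries and reached 1 CPM in the higher of them. The same count over all genes listed in all tables gives the background. In RV over S, 7 members could be compared, 0 were at least 2-fold higher (background 3.96%) and 3 were at least 2-fold lower (background 3.23%), *MMP1*, *MMP15* and *TIMP1*. The median log2 ratio was -0.45 over these members and 0.02 over all 12395 genes. Of the 3 lower genes *TIMP1* alone reached 10 CPM.

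In RVC over S, all 9 members could be compared. At least 2-fold higher were 6, *MMP1*, *MMP2*, *MMP3*, *MMP10*, *MMP14* and *TIMP2* (background 25.0%), and at least 2-fold lower were 2, *MMP15* and *TIMP3* (background 22.8%). The median log2 ratio was 2.24 over the members and 0.23 over all 12973 genes. In RVT over S, 3 of 7 were higher, *MMP2*, *MMP14* and *TIMP2* (background 36.0%), and 2 were lower, *TIMP1* and *TIMP3* (background 21.6%). With GC centring the lower genes were instead *MMP1*, whose log2 ratio went from -0.83 to -1.56, and *TIMP3*, and with TMM scaling they were 4. These counts are close to the background, and the median log2 ratio was -0.83 over the 7 members and 0.46 over all 13354 genes. RV, RVC and RVT were all set against the same S library, so these 3 comparisons are not independent.

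Between the double-resistant libraries, RVT over RVC, 8 members could be compared, 0 were at least 2-fold higher (background 23.3%) and 4 were at least 2-fold lower, *MMP1*, *MMP3*, *MMP10* and *TIMP1* (background 12.8%). *MMP2* and *TIMP3* fell just short of the threshold, at 1.97-fold (1.91 to 2.04) and 2.00-fold (1.69 to 2.37) higher in RVT. *TIMP2* was at 1.16-fold (1.10 to 1.23). The median log2 ratio was -1.58 over the members and 0.31 over all 13204 genes.

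**Figure D2:**
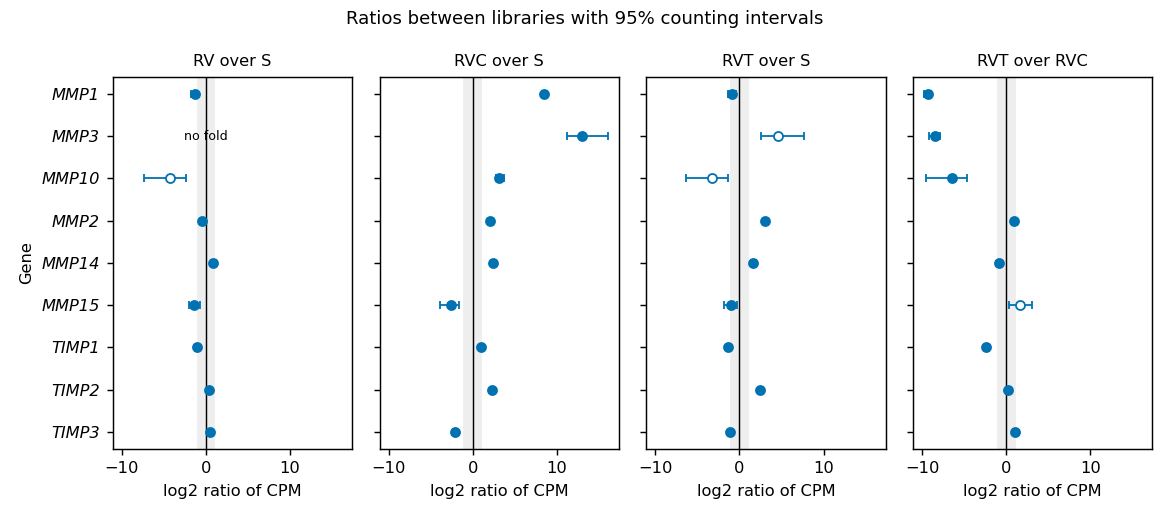
Log2 ratio of CPM for each gene in 4 comparisons of libraries, with exact 95% intervals (counting error only), the span below 2-fold shaded and open points where neither library reached 1 CPM. *MMP1*, *MMP3* and *MMP10* are to the right in RVC over S and to the left in RVT over RVC, and *TIMP3* is to the left in both double-resistant libraries over S.

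The share of cells with a UMI depends on depth, so every cell was thinned to 1500 UMIs, which left out the shallower cells, 403 of RVC and 848 of RVT. At this depth *MMP1* was found in 48.6% of RVC cells (47.4 to 49.8), but in only 0.442% in S (0.294 to 0.638), 0.311% in RV (0.166 to 0.532) and as few as 0.198% in RVT (0.111 to 0.326). Without thinning the shares were 68.7% in RVC and 2.04%, 1.34% and 0.521% in S, RV and RVT. In RVC the gene was thus detected in a large part of the cells.

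*MMP3* was found in 15.4% of RVC cells (14.6 to 16.3), in 0 of 6334 S cells, which allows a share of up to 0.0474% with a UMI at this depth (3 cells in the place of 0), in 0.0239% of RV cells and in 0.105% of RVT cells, and without thinning in 26.7% of RVC cells. The 2 UMIs of the S library were lost in the thinning. *MMP10* reached 1.30% in RVC (1.05 to 1.59) and 0.111% in S (0.0444 to 0.228). For *MMP2* the thinned share was highest in RVT, 42.6%, followed by 24.6% in RVC, 6.68% in S and 4.52% in RV. *TIMP1* was the most widely detected gene in S, RV and RVC, with 58.4%, 45.2% and 82.0%, and had 32.7% in RVT, below *MMP2*. *TIMP2* was found in 2.31%, 2.99%, 11.6% and 13.5% of S, RV, RVC and RVT cells, and *TIMP3* in 4.75%, 6.13%, 1.16% and 2.15%. For *MMP2*, *TIMP1* and *TIMP3* the shares were in the same order of libraries as the levels. No order is read between RVT and RVC for *TIMP2*. Nor is one read between RV and S for *MMP3*, where 1 thinned RV cell held a UMI. For *MMP1* the order of RV and RVT went against that of their levels, with overlapping intervals in both measures, and no order is read from it.

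A culture of 1 line holds no cell type known to be without these genes, and the share of cells that free RNA would give was therefore not measurable. The 903 RVC barcodes with fewer than 500 genes, left out by the filter, held 1738 CPM of *MMP1*, 664 of *MMP3* and 220 of *MMP2*, against 1163, 289 and 192 in the filtered cells, while *TIMP1* was lower there, 1125 against 1867. Within the filtered RVC cells *MMP1* also varied with depth, from 2087 CPM in the shallowest depth quartile to 771 in the deepest. *MMP3* went from 433 to 201, *TIMP1* from 2145 to 1597, and *MMP2* only from 208 to 182. The part of free RNA in the shares was not tested.

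**Figure D3:**
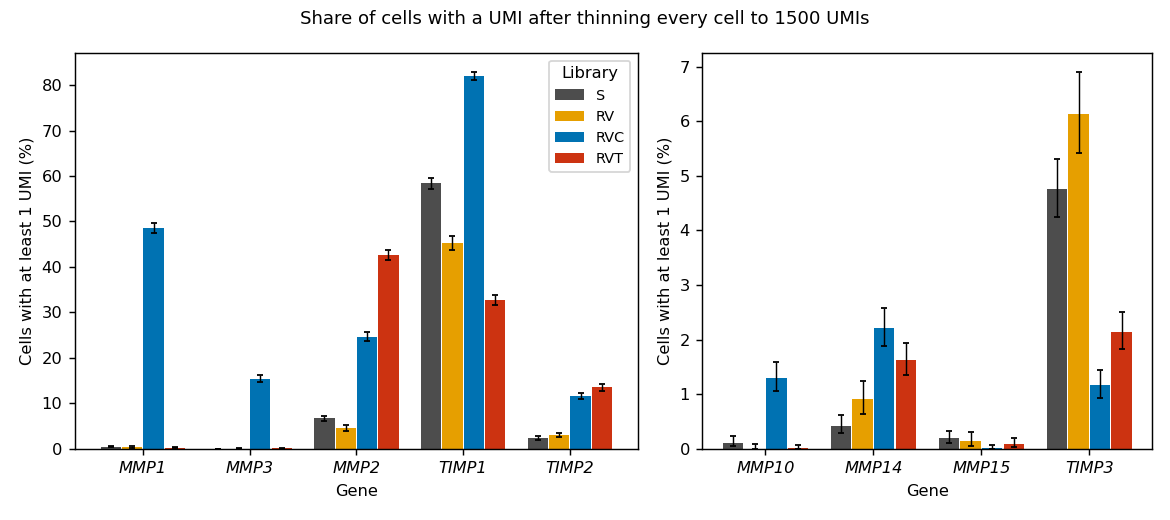
Percent of cells with at least 1 UMI of each gene after thinning every cell to 1500 UMIs, in S, RV, RVC and RVT, with exact 95% Clopper-Pearson intervals; the right panel has its own scale for the rarer genes. *MMP1* is found in 48.6% of RVC cells and in under 1% of cells of the other libraries, and *MMP2* is found most often in RVT, at 42.6%.

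Within RVC, the transcripts of the collagenase and of *MMP3* were spread unevenly over the cells. The most UMIs in a cell were 185 for *MMP1* and 246 for *MMP3*, and 14.6% of the cells held 10 or more UMIs of *MMP1*. The tenth of cells with the most *MMP1* held 58.9% of its UMIs, and the tenth with the most *MMP3* held 84.6% of that gene's. For *MMP2* in the same library the share was 39.3%, and no cell held more than 10 UMIs. At equal depth the variance over the mean of UMIs per cell was 10.1 for *MMP1*, 11.5 for *MMP3*, 4.52 for *TIMP1* and 1.12 for *MMP2*, where a value of 1 is that of random sampling from like cells.

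The neighbouring genes *MMP1* and *MMP3* were often in the same RVC cells. Of 3507 thinned cells with *MMP1*, 24.9% also had *MMP3* (23.5 to 26.4), against 6.50% of 3710 cells without it (5.72 to 7.34), an odds ratio of 4.77 (4.09 to 5.57). Seen from the other side, 78.4% of the *MMP3* cells had *MMP1*. The share of cells with *MMP3* was 9.57% at 1 *MMP1* UMI, 20.9% at 2 to 3 and 47.3% at 4 or more. *MMP10* went along with both, with an odds ratio of 3.73 with *MMP1* (2.27 to 6.40) and 4.98 with *MMP3* (3.22 to 7.66), although without thinning these were 7.36 and 3.28, in the reverse order. Its share went from 0.566% of cells without *MMP1* to 4.11% of those with 4 or more UMIs.

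The inhibitors were looked at in the same way. *TIMP1* was found in 78.8% of RVC cells without *MMP1* and in 91.3% of those with 4 or more UMIs of it, and *TIMP2* in 9.46% and 17.0%. The odds ratios with *MMP1* were 1.55 for *TIMP1* (1.37 to 1.76) and 1.54 for *TIMP2* (1.33 to 1.79). For *TIMP3* it was 1.01 (0.640 to 1.59), with an interval too wide to tell a link from none. *MMP2*, found in 23.8% and 27.4% of these cells, had 1.09 with *MMP1* (0.981 to 1.22) and 1.06 with *MMP3* (0.910 to 1.23). Among 28 pairs of members with at least 50 cells each in RVC, 9 had an interval above 1 and 0 below 1. Pairs of other genes were not counted, so whether these counts are particular to the members was not tested. All cells of a library share 1 culture, so these odds ratios describe this library and carry no p-value. Before thinning, *MMP1*, *MMP3* and *TIMP1* had their lowest CPM in the deepest RVC cells. The part of original depth in these odds ratios was not tested.

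**Figure D4:**
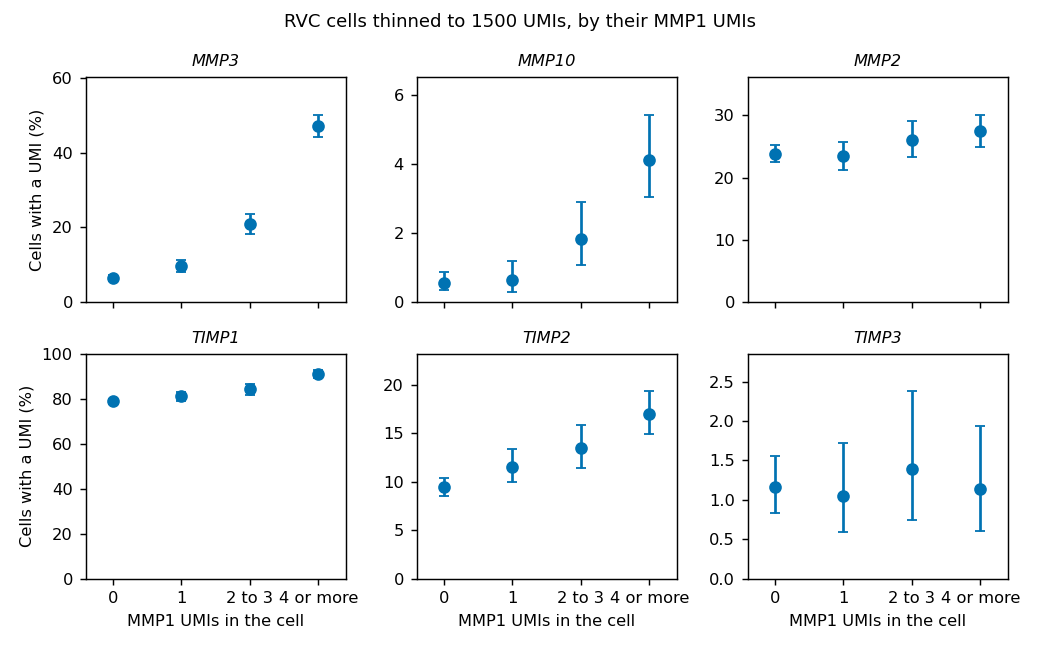
RVC cells thinned to 1500 UMIs, grouped by their number of *MMP1* UMIs (x axis), with the percent of cells holding a UMI of *MMP3*, *MMP10*, *MMP2*, *TIMP1*, *TIMP2* and *TIMP3* (y axis, own scale per panel) and exact 95% Clopper-Pearson intervals. *MMP3* goes from 6.50% to 47.3% and *MMP10* from 0.566% to 4.11%, while the points of *TIMP3* overlap throughout.

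The genes of the MMP2 activation complex were looked at together in both double-resistant libraries. In RVC the odds ratio of *MMP2* with *TIMP2* was 1.19 (1.01 to 1.40), with *MMP14* 1.40 (0.980 to 1.99), and of *MMP14* with *TIMP2* 1.09 (0.642 to 1.76). In RVT the values were 1.23 (1.07 to 1.40), 1.13 (0.776 to 1.64) and 0.753 (0.387 to 1.35). Only *MMP2* with *TIMP2* had an interval above 1, and it did so in both. In RVT it was the sole such pair among 10, and in S and RV, with 6 pairs each, there was none. *MMP2* with *TIMP2* had 1.75 in S (0.961 to 2.98) and 0.876 in RV (0.276 to 2.14). With such wide intervals the pair is not read as particular to the double-resistant libraries. *MMP2* with *TIMP1* in S was below 1 at 0.735 (0.600 to 0.900). That direction turned without thinning, at 1.34, and is not read as a link.

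RVC cells with at least 1 *MMP1* UMI, 5236 of 7620, had a median of 4119 UMIs and 3.71% mitochondrial UMIs, against 3568 and 3.21% in the 2384 cells without. Beside the members, the 10 genes with the largest ratio of CPM between these cells (at least 20 CPM in the cells with *MMP1*) were *SPINK6*, *NTS*, *HS3ST1*, *LRRC15*, *DKK1*, *PDGFRA*, *CHRNA9*, *TMTC2*, *LINC02265* and *RCAN2*, with ratios from 4.37 down to 2.43. *SPINK6*, a protease inhibitor of the Kazal type, had 45.3 CPM in cells with *MMP1* and 10.4 in cells without, a ratio of 4.37 (3.55 to 5.44), and 3.80 (2.98 to 4.90) after thinning. *NTS*, which encodes the secreted peptide neurotensin, had 847 and 269 CPM (3.15, 3.02 to 3.28), and *DKK1*, a secreted WNT antagonist, 215 and 73.5 (2.92, 2.70 to 3.17). *PDGFRA*, the receptor that was also a fibroblast marker in the check above, had 24.9 and 8.78 (2.84, 2.25 to 3.62), whereas the other fibroblast markers with 50 or more UMIs in cells with *MMP1* ranged from 0.745 (*LUM*) to 1.64 (*FAP*). Over all 3757 genes at 20 CPM or more in the cells with *MMP1* the median log2 ratio was 0.06, and *MMP3* itself stood at 10.9 (9.80 to 12.2).

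At the other end, and for genes that reached 20 CPM in the cells without *MMP1*, the lowest ratios belonged to *LCN2*, *GSTM3*, *LINC00973*, *C15orf48* and *SAA1*, which were named after their values were seen. Each of these rankings thus asked for a level in the group of cells where its genes were higher. *LCN2*, the iron-carrier binding protein lipocalin, had 8.45 CPM in cells with *MMP1* and 26.4 in cells without, a ratio of 0.320 (0.264 to 0.387), and *SAA1*, an acute-phase protein gene, had 29.3 and 71.7, a ratio of 0.409 (0.367 to 0.456). These genes were thus more frequent in the RVC cells in which the collagenase was not detected.

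The 5 genes whose profile over the 4 libraries was nearest to that of *MMP1*, by Euclidean distance of centred log2(CPM + 0.1) among 2853 genes with at least 50 CPM in some library, were *NTS* (distance 1.73), *SUCNR1* (2.08), *MMP3* (2.67), *HAS2* (2.94) and *ALOX5AP* (3.21). *NTS* had 681 CPM in RVC and at most 0.581 elsewhere. *SUCNR1*, the succinate receptor, had 253 CPM in RVC and no UMI in the other libraries. *HAS2*, which makes the matrix polysaccharide hyaluronan, had 115 CPM in RVC and 1.21 in S. With 4 libraries a profile high in RVC alone suffices for a small distance.

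*MMP1*, *MMP3* and *MMP10* belong to a run of metalloproteinase genes on chromosome 11, and its other members and neighbours were looked at after these values were known. From centromere to telomere the run is *MMP7*, *MMP20*, *MMP27*, *MMP8*, *MMP10*, *MMP1*, *MMP3*, *MMP12* and *MMP13*. All 5 genes from *MMP10* onwards were at least 2-fold higher in RVC than in S, beside 25.0% of all genes. *MMP12*, the macrophage elastase, had 139 UMIs in RVC (4.23 CPM) against 2 in S and 0 in RV and RVT. *MMP13*, a further collagenase, had 194 UMIs in RVC (5.90 CPM) against 0 in S, 3 in RV and 6 in RVT, so that RVC was at least 115-fold higher than S. The 4 genes from *MMP7* to *MMP8* had at most 2 UMIs in RVC.

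The protein-coding neighbours outside the run had smaller ratios of RVC to S than the genes from *MMP10* to *MMP13*. *TMEM123* and *BIRC2* on the side of *MMP7* had 35.9 and 20.5 CPM in RVC against 51.7 and 55.1 in S, *YAP1* had 25.7 against 11.6, and *DCUN1D5* and *DYNC2H1* on the side of *MMP13* had 41.9 and 16.6 against 102 and 10.1. The largest ratio of RVC to S among them was 6.45 (4.77 to 8.83) for *CFAP300*, at 6.17 CPM in RVC. This interval overlapped that of *MMP10* (6.58 to 12.8). *BIRC3* had 21.9 CPM in S, 13.7 in RVC and 1.93 in RVT. In RVT, *MMP10*, *MMP1*, *MMP3*, *MMP12* and *MMP13* had 75 UMIs together.

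**Figure D5:**
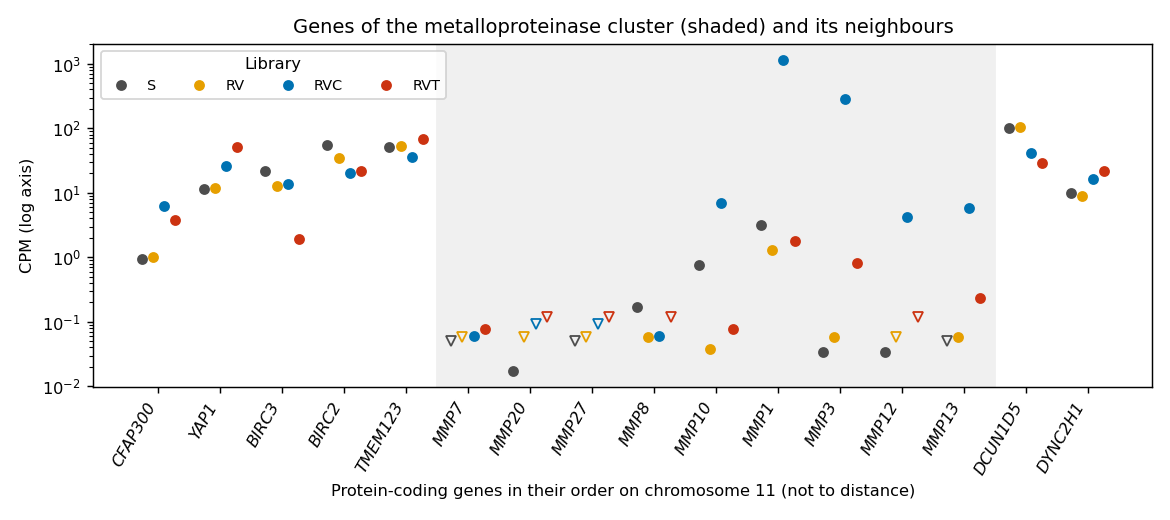
CPM (log axis) of the protein-coding genes of the metalloproteinase run on chromosome 11 (shaded) and of their neighbours, in their order and not to distance, in S, RV, RVC and RVT. Open triangles stand at the level of 3 UMIs for genes with no UMI. From *MMP10* to *MMP13* the RVC point is above the others, up to 1163 CPM, while *MMP7* to *MMP8* have at most 2 UMIs in RVC.

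Levels of the related genes below are given in CPM in the order S, RV, RVC, RVT, and counts use the same 2-fold rule as for the members. Of 17 further metalloproteinases, 6 reached 1 CPM in RVC or S and 3 were at least 2-fold higher in RVC, and 3 reached it in RVT or S and 2 were higher there, beside 25.0% and 36.0% of all genes. None was lower. Those at 10 CPM or more were *MMP16*, another membrane-type protease, with 22.3, 11.4, 17.2 and 89.6 CPM, and *MMP19*, with 0.376, 0.936, 3.19 and 11.6. Both were thus highest in RVT, like *MMP2*. Among 5 further inhibitors, *SPOCK1*, a proteoglycan known to restrain membrane-type metalloproteinases, had 16.2, 16.4, 14.5 and 128 CPM. *TFPI2*, a serine protease inhibitor that also acts on metalloproteinases, had 66.6, 25.3, 83.3 and 6.57. RVT was thus the highest for *SPOCK1* and the lowest for *TFPI2*.

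The plasminogen system feeds metalloproteinase activation, because plasmin cuts several proenzymes. Of its 10 listed genes, 8 were compared in RV over S with 3 higher and 0 lower, 8 in RVC over S with 2 higher and 3 lower, and 7 in RVT over S with 0 higher and 5 lower. The shares of all genes higher and lower were 3.96% and 3.23%, 25.0% and 22.8%, and 36.0% and 21.6% in these comparisons, so the count of higher genes in RVC was at the background. The median log2 ratios were 0.87, 0.03 and -1.96, beside 0.02, 0.23 and 0.46 over all genes. *SERPINE2*, a serine protease inhibitor, had 938, 1030, 192 and 787 CPM, and *S100A10*, a plasminogen-binding protein, had 990, 1669, 252 and 249.

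Of 19 ADAM and ADAMTS genes, the relatives that shed membrane proteins or cut proteoglycans, 3 of 11 were higher and 0 lower in RV over S, 6 of 12 were higher and 2 lower in RVC over S, and 10 of 15 were higher and 2 lower in RVT over S, beside backgrounds of 3.96% and 3.23%, 25.0% and 22.8%, and 36.0% and 21.6%. The median log2 ratios were 0.38, 1.09 and 1.36, beside 0.02, 0.23 and 0.46 over all genes. *ADAM12* had 0.462, 0.306, 29.9 and 5.20 CPM, *ADAM15* had 40.6, 52.2, 5.69 and 9.17, and *ADAMTS6* had 8.59, 25.4, 92.7 and 6.49. *ADAM12* and *ADAMTS6* were thus highest in RVC, as *MMP1* was.

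Among 13 genes for proenzyme activators and surface partners, 0 of 11 were higher and 1 lower in RV over S, 4 and 4 of 11 in RVC over S, and 5 and 4 of 12 in RVT over S, with medians of -0.04, 0.25 and 0.35, beside 0.02, 0.23 and 0.46 over all genes. Of all genes 3.96% and 3.23% were called higher and lower in RV over S. The shares were 25.0% and 22.8% in RVC over S and 36.0% and 21.6% in RVT over S. Counts in so short a list are thus not read as a result. *BSG*, which encodes the metalloproteinase inducer EMMPRIN, had 260, 285, 35.9 and 40.2 CPM, so that RVC and RVT were below S and RV. Its bearing on the metalloproteinase genes was not tested. The integrin gene *ITGA2*, whose product binds collagen in a dimer, had 17.4, 31.7, 154 and 37.1. *ITGAV* had 8.79, 5.12, 40.8 and 68.0, whereas *ITGB3*, named after its values were seen as its partner in the dimer that binds MMP2, had 4.14, 1.09, 0.426 and 0.0394 and was thus lowest where *ITGAV* was highest.

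Of 24 matrix genes that these proteases can cut, 1 of 21 was higher and 4 lower in RV over S, 7 and 5 of 23 in RVC over S, and 12 and 3 of 23 in RVT over S, with medians of -0.30, -0.15 and 1.28, beside 0.02, 0.23 and 0.46 over all genes. The RV counts stand beside 3.96% and 3.23% of all genes. Those of RVC were near the 25.0% and 22.8% of all genes, and those of RVT stand beside 36.0% and 21.6%. *COL3A1*, a fibrillar collagen gene, had no UMI in S and RV, 122 CPM in RVC and 7.32 in RVT, so that RVC was at least 2377-fold higher than S. *COL7A1*, the anchoring fibril collagen, had 2.46, 3.13, 29.9 and 2.16, and *THBS1*, a matrix glycoprotein, had 32.4, 74.7, 10.5 and 653. *COL3A1* was thus above S in both double-resistant libraries and *COL7A1* in RVC, while *THBS1* was above S in RV and RVT and below it in RVC.

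AP-1, ETS and RUNX factors are the known regulators of collagenase and stromelysin promoters. Of 13 such genes, 2 were higher and 0 lower in RV over S, 5 and 2 in RVC over S, 3 and 4 in RVT over S, and 0 and 3 in RVT over RVC, with medians of 0.08, 0.61, 0.22 and -0.60, beside 0.02, 0.23, 0.46 and 0.31 over all genes. Of all genes 3.96% and 3.23%, 25.0% and 22.8%, 36.0% and 21.6%, and 23.3% and 12.8% were higher and lower in these comparisons, and the counts of a list of this length are given as a description. *FOSL1* had 164, 342, 117 and 15.1 CPM, so that it was highest in RV. *FOSB* had 2.92, 3.23, 41.4 and 66.6, and *RUNX2*, known to act on *MMP13*, had 2.15, 2.27, 30.9 and 14.2. Within RVC, the ratio of cells with to cells without *MMP1* was 1.52 for *FOSB* (1.33 to 1.73), and 1.23 after thinning (1.02 to 1.49). It was 1.00 for *RUNX2* (0.874 to 1.15) and 0.853 for *FOSL1* (0.797 to 0.913). The ends of the 13, named after their values were seen, were *ETV1* at 1.68 (1.47 to 1.92) and *FOS* at 1.64 (1.45 to 1.86), and *FOSL2* at 0.728 (0.613 to 0.866). After thinning *ETV1* was at 1.68 (1.41 to 2.01), *FOS* at 1.65 (1.40 to 1.95) and *FOSL2* at 0.763 (0.559 to 1.04). The thinned interval of *FOSL2* thus spanned both directions. Whether any of these factors acted on the metalloproteinase genes was not tested.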

How the data were processed

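The data are droplet single-cell RNA-seq of A375 cells, 1 library for each of S, RV, RVC and RVT, made with the 10x Genomics Chromium v2 kit from 10000 loaded cells each. What the authors deposited are raw UMI counts, whole numbers for each gene in each barcode, and no value had been scaled. The processing notes name bcl2fastq 2.20.0.422, Cell Ranger and GRCh38, and the gene annotation and any filter before deposit are not given in the sources used here. The study gives fewer S and RV cells than these tables have barcodes.

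Barcodes with at least 500 genes and at most 20% mitochondrial UMIs were kept, and those with the highest scrublet scores (scanpy 1.11.5) were removed at 0.8% per 1000 barcodes, because the tool's own threshold marked only 5, 2, 1 and 1. This left 6334 S, 4177 RV, 7620 RVC and 8443 RVT cells with 58470570, 52329047, 32882082 and 25406351 UMIs. UMIs were summed per library, and libraries were compared by ratios of CPM with intervals for counting error in python 3.11.15 (numpy 2.4.6, pandas 2.3.3, scipy 1.17.1). TMM factors came from edgeR 4.0.16 in R 4.3.3, and figures from matplotlib 3.10.9. Thinning drew 1500 UMIs per cell with random seed 1. Ratios, intervals, thinning and odds ratios were tested on simulated data. Gene names came from GENCODE 29.

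Members and lists were chosen with earlier results of these data known. Beside the members, the rule named of each list the 3 genes with the largest log2 ratio to S in either direction, among those at 10 CPM or more, the 5 genes with a profile nearest to *MMP1*, and the 10 with the largest ratio between RVC cells with and without *MMP1*. A gene named by this rule is not reported here. Other cell filters, scalings, weights, thresholds and a centring on GC content were tried as alternatives. Lists of melanocyte, fibroblast, leukocyte, endothelial and keratinocyte markers were summed, and endothelial markers came to 0.630 to 1.31 CPM, leukocyte markers to 35.8 to 155 CPM, nearly all *CD68*, and keratinocyte markers to 80.3 to 253 CPM, nearly all *KRT10*.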

Additional observations from a re-analysis of the deposited data

How the results depend on the processing

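No paired analysis was possible because each condition is 1 library. No called ratio of a member changed its direction under any of the alternatives run, and of the ratios not called those of *MMP15* in RVT over S and of *TIMP2* in RVT over RVC did. At a minimum of 10 CPM the members lower in RV than in S came to 1 and those lower in RVC than in S to 1, and *MMP10* was no longer counted in RVC over S or RVT over RVC, nor *MMP14* in RVT over S, because fewer genes were then compared. With TMM scaling the members lower in RVT than in S came to 4, *MMP1*, *MMP15*, *TIMP1* and *TIMP3*, and *MMP14* was added to those lower in RVT than in RVC; this scaling moved the median log2 ratio of all genes from 0.23 to 0.02 in RVC over S, from 0.46 to -0.06 in RVT over S and from 0.31 to 0.01 in RVT over RVC. Members higher in RVT than in RVC came to 2 with totals without ribosomal and mitochondrial genes and to 2 with equal weight for every cell, *MMP2* and *TIMP3* in both, and to 1 with no minimum level, *MMP15*. *MMP3* joined the members higher in RVT than in S with a minimum of 1000 genes per cell and with no minimum level. With no minimum level *MMP10* joined those lower in RV and in RVT than in S. *MMP15* joined those lower in RVT than in S with all deposited barcodes, without doublet removal and with totals without ribosomal and mitochondrial genes. *MMP1* joined them with equal weight for every cell and with GC centring. *TIMP1* passed 2-fold in RVC over S without doublet removal and with GC centring, and with GC centring it was no longer 2-fold lower in RVT than in S, at a log2 ratio of -0.69. The odds ratio of *MMP1* and *MMP3* in RVC was 3.57 without thinning and 4.09 at 3000 UMIs per cell, and 4.78 to 4.87 under the other cell filters. The cause of these shifts was not tested where fewer genes do not account for it. Outside RVC, *MMP3* and *MMP10* rest on 2 to 45 UMIs, so their ratios there have wide intervals.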
